A study of Mus musculus with 2 samples.

Results

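The cells described here were ileal T cells with at least 2 Ifng transcripts and none of Cd4. Transcripts were counted as unique molecular identifiers (UMIs), 1 per captured RNA molecule. Cells were chosen by these measured counts, among barcodes (each stands for 1 cell) that reached 500 UMIs and 300 genes, had no more than 10% of UMIs from mitochondrial genes and no more than 2 UMIs of Rps19-ps6, a ribosomal pseudogene. Of 10940 deposited barcodes 10599 were kept, 10086 of these had no Cd4 UMI, and 1042 had at least 2 Ifng UMIs. These 1042 Ifng-positive cells came from 2 libraries, 531 of 5737 barcodes labelled Control and 511 of 5203 labelled SAP. Ifng and Cd4 counts selected the cells, so both are given below as a description only.

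The study used FucoID, a labelling method that tags T cells touching an antigen-presenting cell. Phages from healthy mice or from SAP mice were given to dendritic cells, and gut T cells of GF mice were added to these. The labels name the tissue as ileum of Mus musculus and the cells as T cells; they give no strain, age, dose or time, do not spell out SAP or GF, do not say which phages, if any, the Control library received, and do not say whether the tagged or another fraction was loaded. Each group was 1 library, so every interval below covers counting error within a library and none covers the spread between mice or cultures. Intervals of ratios and levels take each UMI as independent, so they do not cover the spread between cells either. They are too narrow where a few cells hold many UMIs of a gene, and counts of genes by interval share this limit.

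Ifng encodes interferon gamma, a cytokine that binds the receptor made of IFNGR1 and IFNGR2 and acts through JAK kinases. T cells of the small intestinal epithelium, many of which carry a gamma-delta receptor or the CD8 alpha chain without CD8 beta, hold large amounts of granzyme and chemokine transcripts at rest. Ifng, Tnf, Ccl3 and Ccl4 are known to be transcribed soon after a receptor signal, when NFAT, AP-1 and NF-kB factors enter the nucleus, together with early genes such as Nr4a1, Egr1 and the GADD45 family.

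The 250 bases before the start of transcription are shown for Ifng, which chose the cells, and for 3 genes that were higher in them, the cytokine Tnf, the chemokine Ccl3 and the stress-signal gene Gadd45b. The sequences are from RefSeq on build GRCm38.p6, read 5′ to 3′ on the gene's strand. Capitals mark GGAAA or its reverse complement TTTCC, the core letters that NFAT factors bind. The windows lie at chr10:118440796-118441045 on the plus strand for Ifng, chr17:35202008-35202257 on the minus strand for Tnf, chr11:83649379-83649628 on the minus strand for Ccl3 and chr10:80929841-80930090 on the plus strand for Gadd45b.
Ifng: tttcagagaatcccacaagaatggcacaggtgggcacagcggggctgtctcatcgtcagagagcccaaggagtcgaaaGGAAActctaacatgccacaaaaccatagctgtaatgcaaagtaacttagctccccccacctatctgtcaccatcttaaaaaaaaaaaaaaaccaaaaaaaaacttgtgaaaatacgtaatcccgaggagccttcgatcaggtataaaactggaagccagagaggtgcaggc
Tnf: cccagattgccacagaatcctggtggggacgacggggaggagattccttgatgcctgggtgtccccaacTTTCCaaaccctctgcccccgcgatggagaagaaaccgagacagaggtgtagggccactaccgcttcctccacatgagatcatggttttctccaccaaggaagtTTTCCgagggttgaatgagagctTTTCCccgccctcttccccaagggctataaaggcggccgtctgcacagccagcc
Ccl3: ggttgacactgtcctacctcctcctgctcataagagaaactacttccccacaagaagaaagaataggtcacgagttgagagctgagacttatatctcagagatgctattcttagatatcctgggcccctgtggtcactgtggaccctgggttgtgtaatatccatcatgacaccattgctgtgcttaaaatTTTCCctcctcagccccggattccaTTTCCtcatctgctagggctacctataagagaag
Gadd45b: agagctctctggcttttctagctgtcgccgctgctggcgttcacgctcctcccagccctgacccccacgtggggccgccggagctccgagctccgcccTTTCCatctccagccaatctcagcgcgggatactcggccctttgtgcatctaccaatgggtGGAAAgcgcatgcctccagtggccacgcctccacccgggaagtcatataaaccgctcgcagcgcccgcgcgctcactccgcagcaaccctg
The core stood once in the Ifng window, with its first base at -172, counted back from the start of transcription. It stood 3 times in the Tnf window, with first bases at -181, -77 and -54. Ccl3 held it at -59 and -34, and Gadd45b at -152 and -91. A match to these 5 letters is common: 55.6% of 32851 promoter windows of this length held 1 or more on either strand. The letters TATAAA, which 12.4% of the windows held, began at -30 in Ifng, -29 in Tnf and -46 in Gadd45b. Windows of 5 more genes were searched: Gadd45g, Nr4a1 and Cd5, higher in the cells, and Kit, lower, held no GGAAA, while Xcl1, lower, held it at -100. The AP-1 letters TGANTCA, held by 6.75% of windows, were found in none of these. These matches describe letters only.

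Ifng was carried by a minority of the cells without Cd4, at nearly the same share in both libraries. The Ifng-positive share of kept cells without a Cd4 UMI was 9.89% (9.11 to 10.7, exact Clopper-Pearson 95% interval) in Control, 531 of 5368. In SAP it was 10.8% (9.96 to 11.8), 511 of 4718. The share depends on depth, and the median depth was 3126 UMIs in Control and 3392.5 in SAP. With each cell thinned to 1000 UMIs it was 3.20% (2.72 to 3.73) of 4877 Control cells and 3.66% (3.11 to 4.27) of 4237 SAP cells, after 491 and 481 shallower cells were left out. The intervals of the libraries overlap both before and after thinning.

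Just outside the rule, 638 Control and 541 SAP cells had 1 Ifng UMI, and just inside it 227 and 221 cells had 2. Another 167 and 162 cells had 3 to 4, 96 and 87 had 5 to 9, and 41 in each library had 10 or more. The median was 3 UMIs in both libraries and the highest cell had 67 in Control and 31 in SAP. Summed over the Ifng-positive cells, Ifng stood in Control at 1182 CPM (counts per 1000000 UMIs) and 1011 CPM in SAP. The 53 Control and 51 SAP cells with most Ifng, the top 10%, held 36.5% and 33.1% of these UMIs, so a small number of cells carried much of the transcript.

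**Figure D1:**
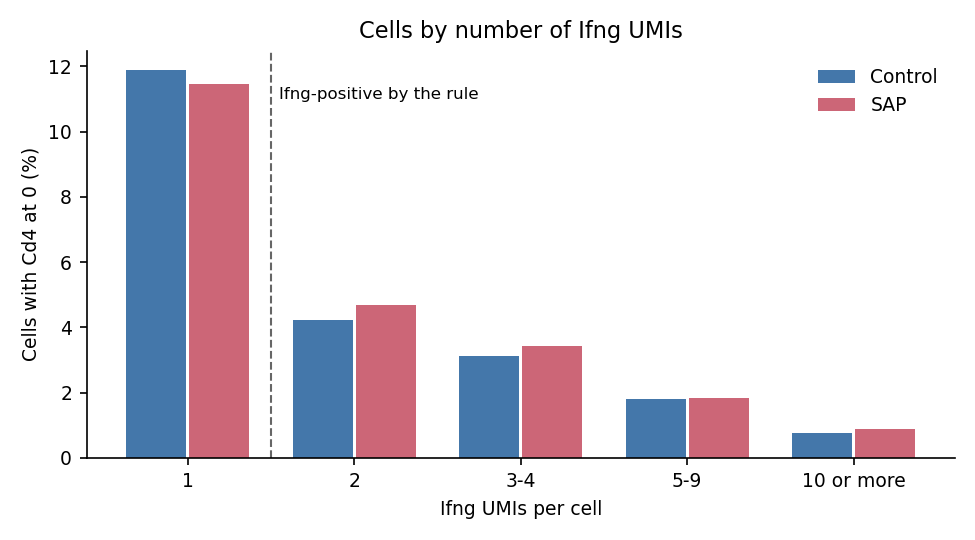
Share of kept cells without a Cd4 UMI (percent, vertical axis) by number of Ifng UMIs (horizontal axis), Control in blue and SAP in red; the dashed line marks the threshold of 2 UMIs. Cells with 1 UMI made up 11.9% and 11.5%, and each higher class was smaller, down to 0.764% and 0.869% at 10 or more.

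Free RNA can give a cell a UMI of a gene it does not express. Barcodes above the Rps19-ps6 limit were left out by the rule and served as a comparison: 4 of 31 in Control and 5 of 63 in SAP had an Ifng UMI, and 1 in each had 2 or more, which is 3.23% and 1.59%. Their median depth was 5592 and 27563 UMIs, against 3508 and 3903 in Ifng-positive cells. After thinning to 1000 UMIs, 1 of 24 (4.17%, 0.105 to 21.1) and 1 of 56 (1.79%, 0.0452 to 9.55) had 2 or more, and these intervals include the thinned shares of the cells without Cd4. With so few comparison barcodes the thinned share was not distinguishable from theirs at this depth. These barcodes were not limited to Cd4 at 0 and may hold Ifng transcripts of their own, so they do not measure the level of free RNA. In Control the only thinned barcode with an Ifng UMI had 2 or more. The part of free RNA in the Ifng-positive share was therefore not determined. The unthinned shares of 9.89% and 10.8% were above the unthinned shares of these barcodes, which rest on 1 barcode each.

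Each Ifng-positive cell was paired with a kept cell of the same library that had no Ifng and no Cd4 UMI and the nearest total of UMIs. Median totals were 3508 against 3505 in Control and 3903 against 3904 in SAP. Ifng-positive cells had slightly fewer genes, a median of 1332 against 1374 and of 1477 against 1519, and a mitochondrial share of 1.14% against 1.06% and 1.33% against 1.28%. A Cd3d, Cd3e or Cd3g UMI was found in 99.1% and 99.4% of Ifng-positive cells, so the cells carried T cell markers. Barcodes with a high doublet score made up 6.78% of Ifng-positive and 7.72% of matched cells in Control, and 6.26% and 2.94% in SAP; the part of doublets in the differences was examined only by leaving these barcodes out. The libraries shared 6 barcode sequences and none of them was Ifng-positive.

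Markers of other cell types were low in Ifng-positive cells. Over 8 marker lists the summed level ran from 25.5 CPM (macrophage or monocyte) to 176 CPM (dendritic cell) in Control and from 27.8 to 162 CPM in SAP, against 8227 and 8487 CPM for the T cell list. Ms4a1, Cd22 and Pax5, which define B cells, Lyz2, Adgre1 and the 3 C1q genes of macrophages, and S100a8 and S100a9 of granulocytes were at 0 in both libraries. All of these but Cd22 and Pax5 were at 0 in matched cells of both libraries too. Other list members were found. Ighm had a UMI in 9.04% and 11.5% of Ifng-positive and 13.9% and 17.8% of matched cells. For Cd79b these shares were 4.90% and 5.68% against 6.40% and 5.87%, and for Cd68 8.66% and 8.41% against 4.52% and 5.48%. The macrophage list was higher than in matched cells, which had 16.2 and 14.8 CPM, and the list of stromal and red cells stood at 51.0 against 29.0 and at 37.9 against 31.1 CPM. The plasma cell list was lower, 109 against 3122 CPM in Control and 75.9 against 128 CPM in SAP, and 1 matched Control cell held 486900 CPM of it. The B cell and epithelial lists were lower as well, at 64.2 against 129 and 83.8 against 102 CPM in Control and at 67.1 against 140 and 84.2 against 318 CPM in SAP. Single matched cells carried much of this: without the highest cell of each list the matched B cell level was 81.5 and 114 CPM and the matched epithelial level in SAP 93.7 CPM. Flt3, Clec9a, Siglech and Ccl17 of the dendritic cell list were at 0, but other members of it were common. Cst3 had a UMI in 29.0% and 31.5% of Ifng-positive and 35.0% and 35.4% of matched cells. Itgax had one in 16.8% and 16.6% against 19.4% and 14.5%. The part of other cell types in the results below was not tested.

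The given marker genes of these cells, besides Ifng itself, are Tnf, a cytokine that signals through the TNF receptors, and Gadd45g, a stress-signal gene. Tnf stood at 43.6 CPM in Ifng-positive and 15.7 CPM in matched Control cells, and at 32.4 and 14.4 CPM in SAP. The ratio was 2.78 (1.84 to 4.30, exact conditional binomial 95% interval) in Control and 2.25 (1.46 to 3.56) in SAP. Tnf was sparse, with a UMI in 9.98% of Ifng-positive cells of each library and in 4.71% and 3.72% of matched cells. Gadd45g stood at 245 against 143 CPM and at 232 against 107 CPM, which gave 1.71 (1.48 to 1.98) and 2.17 (1.85 to 2.55). Both genes were above matched cells in both libraries, and both were named with earlier results of these data known.

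A gene was compared where it had at least 20 CPM in either group and at least 50 UMIs over both. At 1.5-fold or more, 267 of 5518 genes (4.84%) were higher and 334 (6.05%) lower in Ifng-positive cells of Control. In SAP 266 of 5686 (4.68%) were higher and 325 (5.72%) lower. Scaled by the median of ratios instead of the UMI totals, the splits were 332 higher and 261 lower in Control and 307 and 272 in SAP, so the balance of higher and lower depends on the scaling. Of 5327 genes compared in both libraries, 91 (1.71%) were 1.5-fold higher in both and 102 (1.91%) lower in both. Those 91 were 39.6% of the 230 genes higher in Control and 44.2% of the 206 higher in SAP. The interval lay above 1 in both libraries for 281 genes (5.28%) and below 1 for 371 (6.96%), and the median log2 ratio of all compared genes was -0.05 in Control and -0.03 in SAP.

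**Figure D2:**
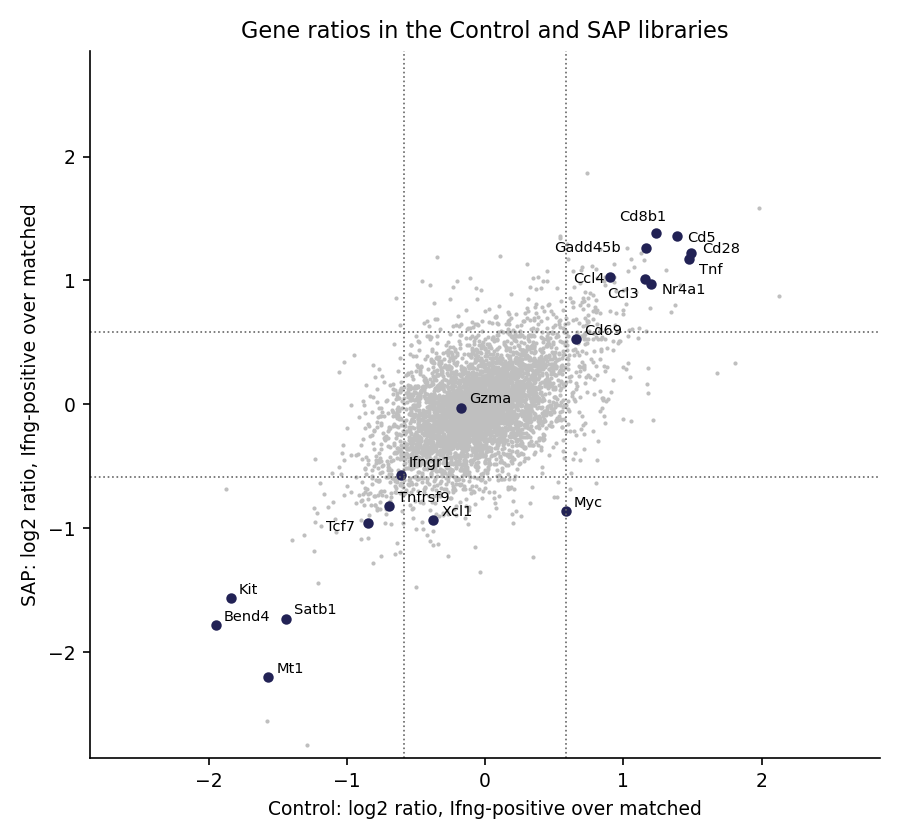
Log2 ratio of Ifng-positive over matched cells in Control (horizontal axis) and in SAP (vertical axis) for the 5327 genes compared in both libraries, 1 grey point per gene; dark points are named genes and dotted lines mark 1.5-fold. Tnf, Cd28, Cd5, Cd8b1, Gadd45b, Ccl3, Ccl4 and Nr4a1 lie beyond 1.5-fold at the upper right, Kit, Bend4, Satb1 and Mt1 at the lower left, and Myc on opposite sides.

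The inflammatory chemokines Ccl3 and Ccl4, which attract T cells and myeloid cells, were higher in Ifng-positive cells. Ccl3 stood at 391 CPM against 176 CPM in Control and at 352 against 175 CPM in SAP, which gave ratios of 2.23 (1.96 to 2.53) and 2.01 (1.78 to 2.28). Ccl4, its close relative, stood at 1184 against 632 CPM and at 951 against 466 CPM, a ratio of 1.87 (1.75 to 2.01) and 2.04 (1.89 to 2.20). At least 1 of the pair had a UMI in 71.2% of Ifng-positive and 52.5% of matched Control cells, and in 72.4% and 51.7% in SAP. Cxcl10, which attracts CXCR3-bearing cells, was higher at lower levels, 72.6 against 46.6 CPM and 60.6 against 28.8 CPM.

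Not every chemokine followed. Ccl5, the most abundant, was found in 99.2% and 98.2% of Ifng-positive cells and stood at 39005 against 37173 CPM in Control and 35654 against 31853 CPM in SAP, only 1.05 and 1.12 times as high. Xcl1, the ligand of XCR1 on cross-presenting dendritic cells, was lower, 244 against 317 CPM and 183 against 350 CPM, with ratios of 0.771 (0.685 to 0.868) and 0.523 (0.461 to 0.591); 1 matched Control cell held 150 of 645 UMIs. Without that cell, a check added after the data were seen, the Control ratio was 0.999 (0.881 to 1.13), and in Control the direction turned under 3 other settings. Of 13 chemokine genes 5 were compared in both libraries, 4 with the interval above 1 in both and 1 below, and the median log2 ratio was 0.64 in Control and 1.01 in SAP. For this and the other lists, each median is over the genes compared in that library. For some lists these are not the same genes as those compared in both.

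Other cytokines gave few UMIs. Of 20 listed genes besides Ifng, 5 were compared in both libraries and Tnf alone had the interval above 1 in both. The median log2 ratio was -0.01 over 5 genes in Control and 0.33 over 6 genes in SAP. Il17a was among the 6, and 1 SAP cell held 142 of its 150 UMIs. Il2, the T cell growth factor, had 9 UMIs against 5 in Control and 26 against 7 in SAP, where 12 of the 26 were in 1 cell. Csf2 had 2 against 7 and 5 against 3 UMIs, and Ccl1 had none in any of the 4 groups. Fasl, the death ligand, stood at 52.5 against 57.9 CPM in Control, where the ratio of 0.906 had an interval of 0.691 to 1.19, and at 52.3 against 74.2 CPM in SAP, a ratio of 0.704 (0.549 to 0.902).

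Genes that feed back on receptor signals were among the highest by ratio. Gadd45b, an activator of the p38 pathway, stood at 1244 CPM against 556 CPM in Control and 1150 against 480 CPM in SAP. Its ratios were 2.24 (2.08 to 2.40) and 2.40 (2.23 to 2.58), and a UMI was found in 78.9% and 80.2% of Ifng-positive cells against 57.6% and 58.3% of matched cells. Cd5, a brake on the T cell receptor, stood at 91.2 against 34.9 CPM and at 89.3 against 34.8 CPM, a ratio of 2.62 and 2.57. Dusp1 and Dusp2, phosphatases that switch off MAP kinases, had ratios of 1.48 and 1.93 in Control and of 1.69 and 1.67 in SAP. Cblb, a ubiquitin ligase that restrains T cells, was lower at 0.672 and 0.620. Of 22 feedback genes 18 were compared in both libraries, 8 had the interval above 1 in both and 4 below, and the median log2 ratio was 0.25 and 0.19.

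The transcription factors split in the same way. Nr4a1, a nuclear receptor induced within minutes of a receptor signal, stood at 648 against 282 CPM in Control and 587 against 299 CPM in SAP, with ratios of 2.30 (2.08 to 2.54) and 1.97 (1.79 to 2.16). Egr1, an early zinc finger factor, had 1.91 (1.72 to 2.13) and 2.19 (1.93 to 2.48). Nr4a3 and Nr4a2, relatives of Nr4a1, were closer to 1, with ratios of 1.29 and 1.17 in Control and of 1.21 and 1.18 in SAP. Batf, an AP-1 partner of IRF4, had 1.80 and 1.46, while Crem, a repressor of cyclic AMP targets, was lower at 0.681 and 0.655. Of 15 such factors 11 were compared in both libraries, 5 with the interval above 1 in both and 1 below. The median log2 ratio was 0.37 over the 13 compared in Control and -0.02 over the 11 compared in SAP. Irf8 had a ratio of 0.674 (0.474 to 0.951) in Control and 0.972 (0.703 to 1.35) in SAP, and Irf4 was too sparse to compare, with 37 against 19 and 27 against 24 UMIs.

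AP-1 and other immediate early genes were higher as a list. Of 17 genes 15 were compared in both libraries, 11 had the interval above 1 in both and 1 below, and the median log2 ratio was 0.58 in Control and 0.50 in SAP. Jun stood at 1.87 (1.75 to 2.0) and 1.69 (1.58 to 1.81) times the matched level, Fos at 1.73 and 1.49, Zfp36, which destabilises cytokine mRNAs, at 1.69 and 1.86, and Junb at 1.52 and 1.47. The exception below 1 was Fosl2, at 0.684 and 0.729. Cd69, a surface marker of recent activation and of tissue residence, stood at 787 against 498 CPM and 680 against 472 CPM, a ratio of 1.58 and 1.44.

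Heat shock genes were higher beside them, and their part in the other differences was not tested. Of 12 genes 11 were compared in both libraries and 9 had the interval above 1 in both, with a median log2 ratio of 0.36 and 0.23. Hspa1a had a ratio of 1.72 and 1.49 and the co-chaperone Dnajb1 of 1.64 and 1.78. Among 19 NF-kB genes 5 had the interval above 1 in both libraries and 1 below, with medians of 0.07 and 0.15. Nfkbia and Nfkbid, inhibitors that NF-kB itself induces, had ratios of 1.62 and 1.61 in Control and of 1.27 and 1.97 in SAP. A UMI of each of Gadd45b, Nr4a1 and Egr1 was present in 37.9% of Ifng-positive and 18.3% of matched Control cells, and in 32.9% and 17.8% in SAP. Yet 6.59% and 6.07% of Ifng-positive cells had none of the 3.

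**Figure D3:**
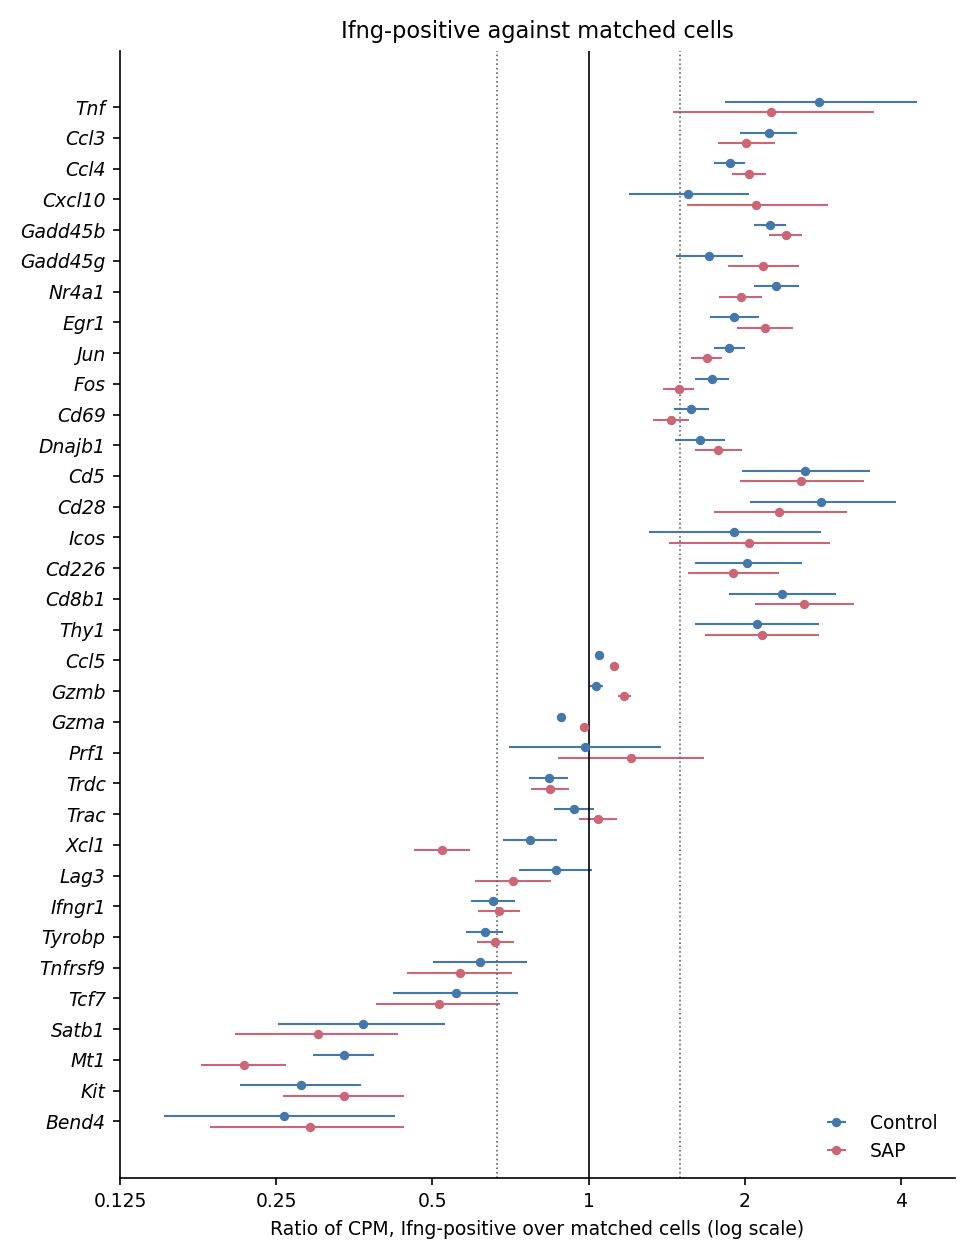
Ratio of CPM in Ifng-positive over matched cells (log horizontal axis) for 34 genes, Control in blue and SAP in red, with exact 95% intervals for counting error; the solid line marks 1 and dotted lines 1.5-fold. Tnf, Ccl3, Ccl4, Cxcl10, the early response genes, Cd28, Icos and Cd226 lie to the right in both libraries. Ccl5, Gzma, Gzmb, Prf1 and Trac lie near 1, and Xcl1, Tnfrsf9, Tcf7, Satb1, Mt1, Kit and Bend4 to the left in both libraries.

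The main cytotoxic granule genes were abundant, and their ratios over all classes were near 1. A UMI of Gzma, Gzmb or Prf1 was found in 96.2% of Ifng-positive and 90.8% of matched cells in Control and in 95.7% and 88.5% in SAP. Gzma, a serine protease of cytotoxic granules, stood at 20975 against 23712 CPM in Control and at 21581 against 21983 CPM in SAP, ratios of 0.885 and 0.982. Gzmb, which activates caspases, stood at 4268 against 4124 CPM and at 4633 against 3956 CPM, ratios of 1.03 (1.0 to 1.07) and 1.17 (1.14 to 1.21). Perforin, Prf1, had 73 against 74 and 87 against 72 UMIs, with ratios of 0.985 (0.703 to 1.38) and 1.21 (0.872 to 1.67). By receptor class, described below, Gzma was higher among Trdc cells, at 1.10 (1.08 to 1.12) in Control and 1.13 (1.11 to 1.15) in SAP, and below 1 in the other 6 comparisons, down to 0.661 (0.622 to 0.703), with the interval excluding 1 in all 8. Gzmb was higher among Trdc cells, at 1.24 and 1.22, and lower among Cd8b1 cells, at 0.801 (0.738 to 0.869) and 0.824 (0.771 to 0.881). Of 13 granule genes compared in both libraries 2 had the interval above 1 in both and 3 below, and the medians were 0.02 and -0.01. Serpinb9 and Serpinb6b, granzyme inhibitors, were among the lower, with ratios of 0.638 and 0.649 in Control and 0.766 and 0.772 in SAP.

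Factors known to drive Ifng that had enough UMIs to compare were mostly not higher in these cells. Of 18 such genes 11 were compared in both libraries, none had the interval above 1 in both and 3 had it below, and the median log2 ratio was -0.09 in Control and -0.10 in SAP. Tbx21, which encodes T-bet, stood at 111 against 83.0 CPM in Control, a ratio of 1.34 (1.09 to 1.65), and at 97.6 against 86.3 CPM in SAP, where the interval of 0.925 to 1.39 included 1. Eomes was too sparse to be compared, with 10 UMIs against 2 and 9 against 1. Its ratios were 4.99 (1.06 to 46.9) and 8.98 (1.24 to 393). With cells paired within receptor class, described below, they were 1.97 (0.615 to 7.36) and 1.11 (0.379 to 3.30). Il12rb2, a chain of the interleukin 12 receptor, had 0.945 (0.671 to 1.33) and 0.665 (0.465 to 0.944). Il2rb, Stat5a and Stat5b, which carry interleukin 2 and 15 signals, were the 3 below 1, at 0.647, 0.640 and 0.736 in Control and at 0.782, 0.763 and 0.612 in SAP.

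On the receiving side, Ifngr1, the ligand-binding chain of the interferon gamma receptor, was lower in Ifng-positive cells. It stood at 333 against 508 CPM in Control and 344 against 511 CPM in SAP, ratios of 0.655 (0.594 to 0.722) and 0.672 (0.612 to 0.739). Psmb9, an immunoproteasome subunit, had 1.28 and 1.47. Irf1 had 1.11 (0.961 to 1.29) and 1.43 (1.22 to 1.67). Of 21 response genes compared in both libraries 2, Psmb9 among them, had the interval above 1 in both and Ifngr1 alone had it below, with medians of -0.05 and 0.15.

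Costimulatory receptors divided. Cd28, the main costimulatory receptor of conventional T cells, stood at 74.5 against 26.5 CPM in Control and 73.5 against 31.5 CPM in SAP, ratios of 2.81 (2.05 to 3.91) and 2.33 (1.74 to 3.15). Icos had 1.91 and 2.04, and Cd226, an adhesion receptor that activates killing, 2.03 and 1.90. Tnfrsf9, which encodes 4-1BB and is known as a marker of receptor signals, was lower instead, 75.0 against 121 CPM and 54.6 against 96.5 CPM, ratios of 0.619 (0.502 to 0.760) and 0.566 (0.448 to 0.713). Of 9 costimulation genes compared in both libraries 4 had the interval above 1 in both and 2 below, with median log2 ratios of 0.33 and 0.20. Of 6 inhibitory receptors none had it above 1 in both and 1 had it below, with medians of -0.21 and -0.26. Lag3 had ratios of 0.864 (0.735 to 1.01) and 0.716 (0.605 to 0.847), and Cd160 of 1.05 (0.925 to 1.20) and 1.10 (0.975 to 1.24).

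Receptor genes placed the Ifng-positive cells differently from the matched cells. Cd8b1, the CD8 beta chain of conventional CD8 T cells, stood at 118 against 50.1 CPM in Control and 141 against 54.3 CPM in SAP, ratios of 2.36 (1.86 to 3.0) and 2.60 (2.09 to 3.25). Thy1 had 2.11 and 2.16 and Cd6 1.91 and 1.98. Trdc, the constant gene of the delta chain, was lower, with 0.838 (0.768 to 0.915) and 0.841 (0.774 to 0.915), as were Fcer1g and Tyrobp, adaptors that natural T cells of the gut share with NK cells, at 0.681 and 0.630 in Control and 0.701 and 0.661 in SAP. Trac had 0.938 (0.859 to 1.02) and 1.04 (0.957 to 1.13). Itgae, the epithelial homing integrin CD103, stood at 541 against 527 CPM and 636 against 548 CPM.

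Cells were put into classes by UMIs of Trdc, Cd8b1 and Cd8a; a missing UMI does not show a missing transcript, so the classes are read from detection only. Cells with Cd8b1 and no Trdc made up 17.9% (14.7 to 21.4) of Ifng-positive and 8.85% (6.58 to 11.6) of matched cells in Control, and 23.3% (19.7 to 27.2) against 8.81% (6.5 to 11.6) in SAP. Cells with Trdc and no Cd8b1 were the largest class but less frequent than among matched cells, 39.0% against 50.3% and 38.4% against 53.2%. Counted the other way, Ifng-positive cells were 16.9% and 21.3% of the Cd8b1 class and 8.76% and 9.19% of the Trdc class. After thinning to 1000 UMIs these shares were 5.57% (3.79 to 7.85) and 7.25% (5.21 to 9.78) for Cd8b1 and 2.09% (1.54 to 2.76) and 1.98% (1.42 to 2.69) for Trdc. The intervals for Cd8b1 and for Trdc did not overlap in either library. A high thinned share was not particular to Cd8b1. Cells with none of Trdc, Cd8b1 and Cd8a had 6.47% (4.66 to 8.71) and 6.89% (4.85 to 9.45). Unthinned, these shallower cells had 9.57% and 10.8%, at median depths of 2251.5 and 1956 UMIs.

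**Figure D4:**
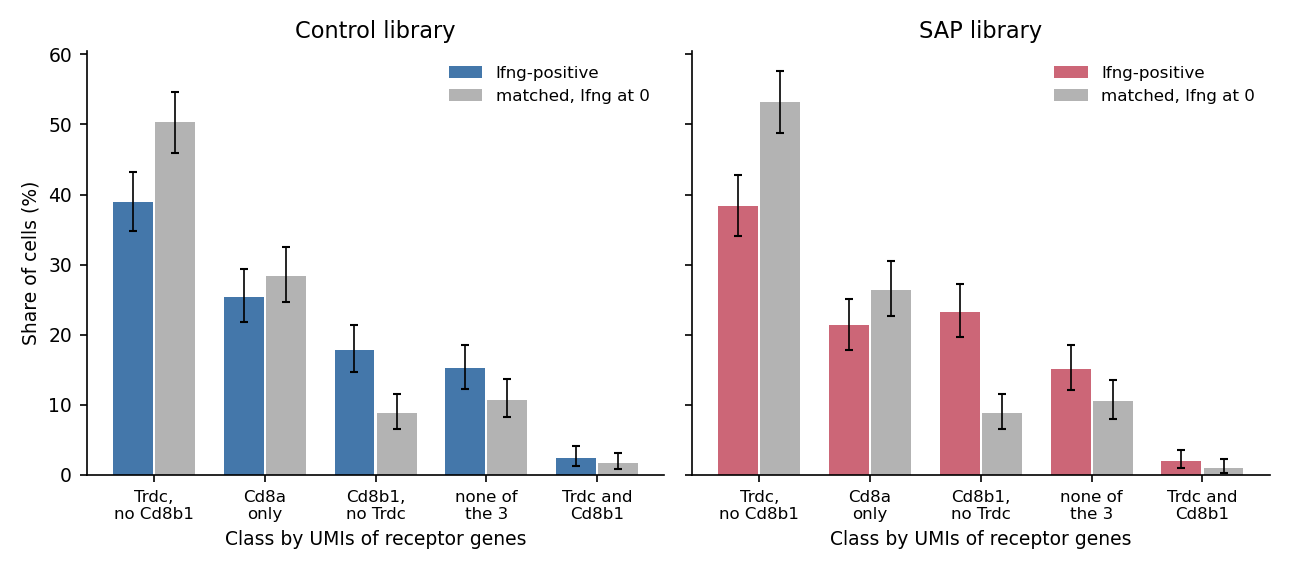
Share of cells (percent, vertical axis) in 5 classes by detected receptor genes, Ifng-positive cells in colour and matched cells in grey, Control at left and SAP at right, with exact 95% intervals for counting error. The Cd8b1 class is larger and the Trdc class smaller among Ifng-positive cells in both libraries.

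The name cytotoxic did not hold equally for all classes. Cells with none of Trdc, Cd8b1 and Cd8a made up 15.3% of Ifng-positive cells in Control (81 cells) and 15.1% in SAP (77 cells), against 10.7% and 10.6% of matched cells. Ifng, which chose the cells, stood at 1859 and 1963 CPM in them and at 968 and 814 CPM in the Trdc class, with a median of 3 UMIs per cell in both classes and libraries; classes are not ranked by it, since 2 UMIs weigh more in a shallower cell. Their Gzma stood at 6771 and 6104 CPM, against 27676 and 26657 CPM in the Trdc class and 11442 and 13403 CPM in the Cd8b1 class. Cd28 stood at 399 and 326 CPM and Icos at 250 and 224 CPM in them, far above the 9.65 and 2.26 CPM of Cd28 in the Trdc class. Cd40lg, the ligand of CD40 known from helper T cells, had a UMI in 16% and 15.6% of them and in 0.483% and 0.510% of Ifng-positive Trdc cells. Their median depth was lower, 2849 and 2832 UMIs, and whether they hold Cd4 transcripts that were not captured cannot be told apart from a true lack.

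Tnf also differed by class. In Ifng-positive cells it stood at 150 and 88.0 CPM in the class with none of the 3 genes and at 65.9 and 46.1 CPM in the Cd8b1 class. The Trdc class had only 8.44 and 13.6 CPM, 7 and 12 UMIs, which was 0.778 (0.246 to 2.35) and 0.998 (0.410 to 2.43) times the level of matched Trdc cells. Xcl1 showed ratios on both sides of 1 by class. Among Trdc cells it was lower in the Ifng-positive, at 0.546 (0.442 to 0.672) in Control and 0.381 (0.309 to 0.467) in SAP, while among Cd8b1 cells it was higher, at 2.19 (1.56 to 3.11) and 1.59 (1.06 to 2.40). The differences between classes were not tested.

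Because the mix of classes moved with the other genes, each class was also compared with matched cells of the same class, 4 classes in 2 libraries. Gadd45b was higher in all 8 of these comparisons, at 1.74 to 3.34 times, with the interval above 1 in each. Nr4a1 (1.58 to 4.15), Ccl3 (1.64 to 8.63), Ccl4 (1.48 to 2.58) and Fos (1.30 to 2.73) did the same in all 8. Ifngr1 (0.385 to 0.783) and Mt1 (0.183 to 0.450) had the interval below 1 in all 8. Kit, Bend4 and Tnfrsf9 were below 1 in all 8 and had the interval below 1 in 6 of them. Cd5 and Cd28 were above 1 in 6 of the 8, with the interval above 1 in 3, so their ratios were less even across classes.

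With cells paired within class, a setting added after the data were seen, 211 of the 281 genes with the interval above 1 in both libraries had it there again, and 278 of the 371 below. Of the 15 highest genes 13 did so, all but Sit1 and Cd8b1, and of the 10 lowest 10. Cd5 then had ratios of 1.46 (1.16 to 1.84) and 1.38 (1.10 to 1.73), down from 2.62 and 2.57, and Thy1 of 1.49 and 1.39. Cd28 had 1.74 and 1.89. Gadd45b had 2.51 and 2.26, Nr4a1 2.40 and 1.81, and Tnf 3.66 (2.31 to 6.01) and 1.86 (1.23 to 2.85). Cd8b1 itself, which the classes use, is not read here. The AP-1 list again had 11 of 15 genes above 1 in both libraries, and the heat shock list 10 of 11. Over all 5252 genes compared in both libraries in this setting, 280 had the interval above 1 in both and 375 below. The Ifng-positive cells were those of the main comparison, so this is not an independent repeat.

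Among the 15 genes highest in both libraries were also genes outside the lists. Milr1, an inhibitory immunoglobulin-like receptor known from mast cells, stood at 65.2 against 29.5 CPM in Control and 86.5 against 38.5 CPM in SAP, ratios of 2.21 (1.62 to 3.06) and 2.25 (1.73 to 2.95). Lgals1, which encodes galectin 1, had 2.19 and 2.33, and 1 SAP cell held 47 of its 245 UMIs. Matched within receptor class it had 1.33 (1.09 to 1.63) and 2.10, and among Cd8b1 cells it was below 1 in Control, at 0.524 (0.357 to 0.760), and above it in SAP, at 4.69 (3.13 to 7.26). Rasl11a, a small GTPase, had 2.47 and 2.13, and Sit1, an adaptor that damps receptor signals, 2.66 and 1.95 on 48 and 47 UMIs; matched within class Sit1 had 1.58 (0.981 to 2.58) and 1.45 (0.904 to 2.34), intervals that include 1. Pygm, a glycogen phosphorylase, had 2.07 and 2.25, and Hyal2, a hyaluronidase, 2.03 and 2.39.

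The genes lowest in Ifng-positive cells included a growth factor receptor, metallothioneins and factors of less differentiated T cells. Kit, the receptor of stem cell factor, stood at 35.8 against 128 CPM in Control and 35.6 against 105 CPM in SAP, ratios of 0.279 (0.212 to 0.363) and 0.338 (0.258 to 0.440). Kit is also a mast cell gene, and it made up most of the granulocyte and mast cell list, which stood at 38.7 against 129 CPM and 37.0 against 106 CPM. It was found in 9.79% and 10.6% of Ifng-positive and 23.7% and 25% of matched cells. Mt1, which binds zinc and copper, stood at 146 against 433 CPM and 63.8 against 294 CPM, ratios of 0.337 and 0.217; single matched cells held 160 of its 882 and 164 of its 634 UMIs. Mt2, another metallothionein, had 0.335 and 0.170, but 1 matched Control cell held 77 of 188 UMIs; without it the Control ratio was 0.565 (0.408 to 0.777), and with Ifng at 4 or more it turned to 1.23. Satb1, a chromatin organiser of developing T cells, had 0.368 (0.252 to 0.528) and 0.301 (0.208 to 0.428), and Tcf7, the factor of naive and memory T cells, 0.556 and 0.514.

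Il7r, the interleukin 7 receptor of naive and memory cells, went the other way at 1.82 (1.39 to 2.40) and 1.95 (1.53 to 2.50). Of 5 genes of naive and memory T cells compared in both libraries, 3 had the interval below 1 in both and 1 above. The median log2 ratio was -0.29 over 5 genes in Control and -0.64 over 6 genes in SAP. Bend4, first among the lower genes when ranked by the ratio nearer to 1, had 0.259 and 0.291, on 21 against 81 and 30 against 103 UMIs. Cenpa, a centromere histone, had 0.433 and 0.369, Trf, which encodes transferrin, 0.425 and 0.440, Ppp1r3b, which directs a phosphatase to glycogen, 0.403 and 0.480, and Sft2d2 0.379 and 0.468. Cd74, the invariant chain, had 0.410 and 0.148, but 1 matched cell held 50 of its 56 matched UMIs in Control and 34 of 74 in SAP, and it was found in more Ifng-positive than matched Control cells, 3.01% against 0.942%. The Control ratio of Cd74 turned to 3.8 (1.51 to 11.4) without that cell, to 3.13 without high doublet scores and to 3.33 with Ifng at 4 or more.

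The other lists are given by their counts. Of 18 receptor and lineage genes compared in both libraries 4 had the interval above 1 in both and 4 below, with median log2 ratios of -0.08 in Control and 0.02 in SAP, and Cd8b1, Thy1, Cd5 and Cd6 were the 4 above. Of 5 NK receptor genes none was above and 2 below (-0.53 and 0.14), and of 16 residency and homing genes 2 were above and 1 below (0.04 and 0.15). Glycolysis had none of 14 above and 1 below (-0.02 and 0.01), and ribosome synthesis 1 of 11 above and none below (0.16 and -0.03). Of 6 BCL2 family genes 1 was above and 1 below (-0.24 and -0.19), and of 4 proliferation genes 1 was above (0.36 and 0.59). The BCL2 medians are over 8 genes in Control and 6 in SAP, and the proliferation medians over 5 in each.

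Levels were also followed across the number of Ifng UMIs per cell. Gadd45b stood at 556 CPM in matched cells, 857 CPM with 1 Ifng UMI, 861 with 2, 1347 with 3 to 4, 1387 with 5 to 9 and 2314 CPM (2093 to 2553) with 10 or more in Control. In SAP it was 480, 791, 1039, 919, 1315 and 2071 CPM (1881 to 2276). Cells just below the threshold thus already lay above the matched cells. Cd28 stood at 26.5, 43.9, 48.1, 57.8, 90.1 and 226 CPM in Control and at 31.5, 44.8, 44.5, 73.9, 67.2 and 206 CPM in SAP, highest in the cells with most Ifng.

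Other genes were lower where Ifng was highest. Gzma stood between 23551 and 23925 CPM up to 2 Ifng UMIs in Control and at 13070 CPM (12537 to 13621) at 10 or more; in SAP it was 23949 CPM at 2 and 10835 CPM (10394 to 11291) at 10 or more. Trdc stood at 559 and 553 CPM with 2 Ifng UMIs and at 220 and 244 CPM with 10 or more. Kit stood at 70.3 and 61.4 CPM with 1 Ifng UMI and at 37.0 and 43.4 CPM with 2; at 10 or more no UMI was found in 41 Control cells, which allows up to 17.4 CPM at 3 counts, and 3 in 41 SAP cells. Receptor class and depth also moved across these steps, since median totals ran from 3110.5 to 3769 UMIs in Control and from 3408 to 4726 in SAP, and their part was not tested.

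**Figure D5:**
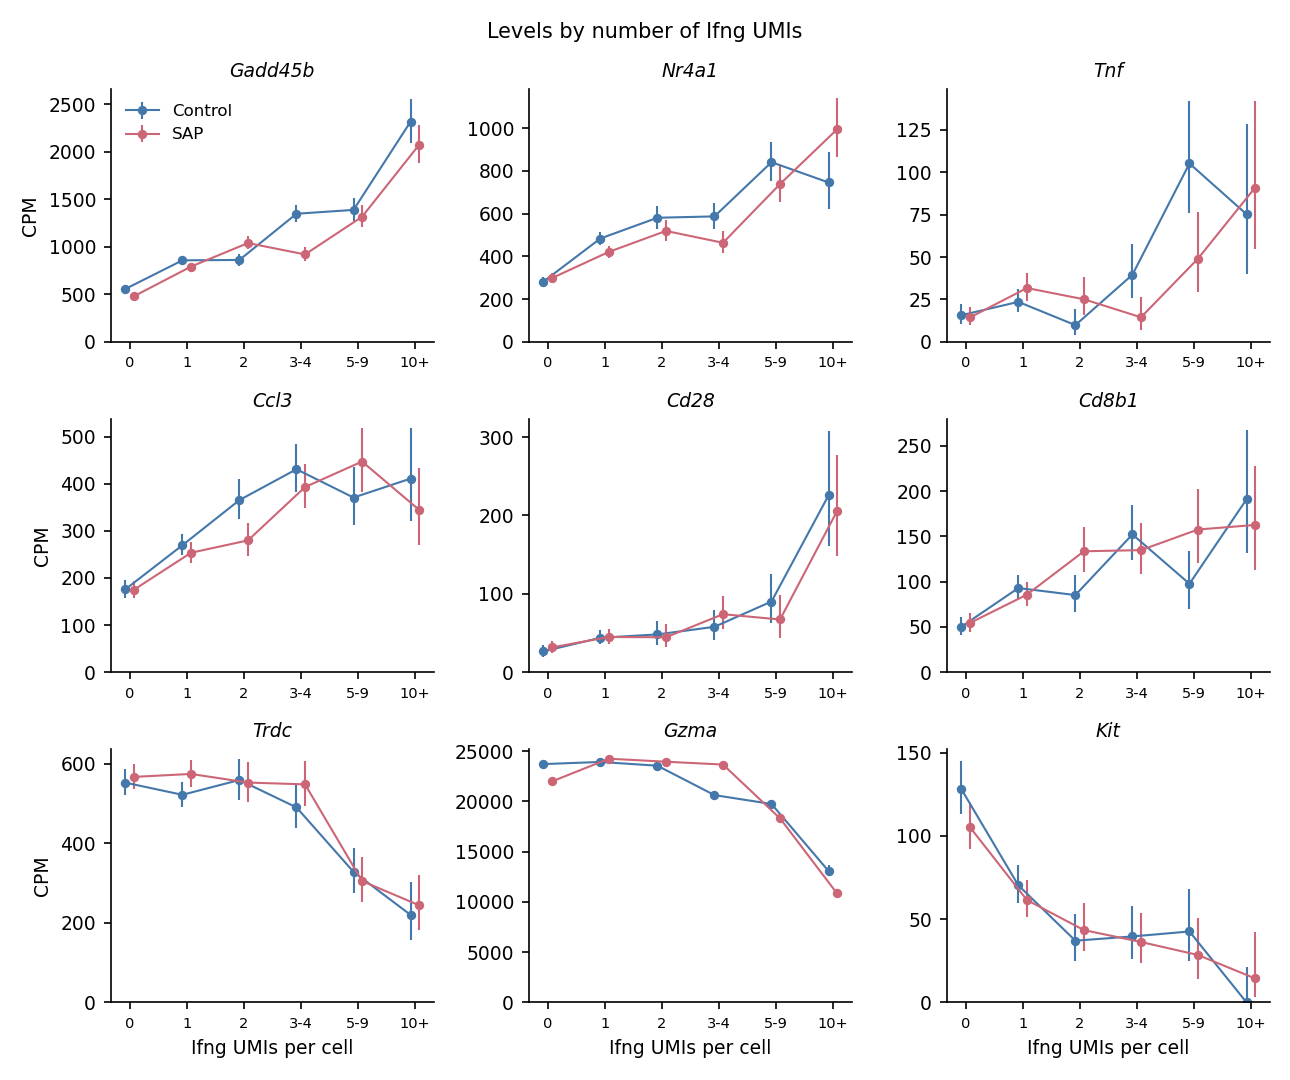
Level in CPM (vertical axes, from 0) of 9 genes by number of Ifng UMIs per cell (horizontal axes; 0 stands for matched cells), Control in blue and SAP in red, with exact 95% Poisson intervals for counting error. Gadd45b, Nr4a1 and Cd28 are higher in cells with more Ifng UMIs and Trdc, Gzma and Kit lower, each in both libraries when 10 or more is set against 1.

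Within the Ifng-positive cells thinned to 1000 UMIs, 526 in Control and 508 in SAP, no gene tracked Ifng closely. The 10 genes most like it by Spearman's rho were Junb (0.14 and 0.20), Isg15, Rab43, Rn18s-rs5, Ier5, Hsp90aa1, Nr4a1, Nfatc2, Ncoa6 and Chd3, all at 0.20 or less. All pairs within a library share its depth and free RNA, and values this weak in sparse counts are given as a description only.

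Between the libraries, Ifng-positive cells of SAP and Control were set against each other, with the matched cells beside them. At 1.5-fold 231 of 5585 genes (4.14%) were higher and 95 (1.70%) lower in SAP, and among matched cells 180 of 5520 (3.26%) were higher and 62 (1.12%) lower. Scaled by the median of ratios, the first split was 146 higher and 135 lower, so its balance rests on the scaling. Several response genes were somewhat lower in SAP. Gadd45b stood at 1150 CPM in SAP and 1244 in Control, a ratio of 0.925 (0.874 to 0.978), Nr4a1 at 0.906 (0.838 to 0.979) and Ccl3 at 0.900 (0.814 to 0.995). Egr1 stood at 0.793 (0.722 to 0.871), Nfkbia at 0.787 (0.722 to 0.857) and Tnf at 0.742 (0.535 to 1.03). Fos was close to 1, at 0.983 (0.922 to 1.05). The median log2 ratio was -0.26 for chemokines, -0.17 for receptor-signal factors and -0.10 for NF-kB genes. It was -0.04 for feedback genes, 0.01 for AP-1 genes, 0.01 for heat shock genes and 0.07 over all compared genes. Ccl4 was lower in SAP at 0.803 (0.757 to 0.852), and also in matched cells at 0.737 (0.678 to 0.801). Library and group cannot be told apart here.

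Most of the genes furthest apart between the libraries had few UMIs or rested on 1 cell, and Mt1 had more. Il17a, the type 17 cytokine, had 150 UMIs in SAP and 22 in Control, but 1 SAP cell held 142 of them. Vmn2r96, a vomeronasal receptor gene, had 94 against 27 UMIs, Cdkn1c, an inhibitor of cell division, 44 against 13, and Hsd17b7, an enzyme of steroid synthesis, 55 against 20. Lower in SAP were Mt2 with 15 against 63 UMIs, Mt1 with 138 against 298, Fam83d with 20 against 51 and Ndufaf4 with 23 against 51. Single Ifng-positive Control cells held 73 of the 298 Mt1 UMIs and 14 of the 63 Mt2 UMIs. Mt1 and Mt2 were lower in SAP among matched cells as well, at 0.679 (0.612 to 0.753) and 0.442 (0.339 to 0.573). Without the 1 matched Control cell with most UMIs of each these were 0.827 (0.742 to 0.921) and 0.747 (0.558 to 0.997). With the matched cell with most UMIs left out in each library they were 0.614 (0.546 to 0.691) and 0.502 (0.359 to 0.694). Myc had 37 UMIs in SAP and 66 in Control, a ratio of 0.529 (0.344 to 0.803), against 1.44 (0.969 to 2.15) in matched cells, and Xcl1 had 0.748 (0.654 to 0.856) against 1.10 (0.993 to 1.23). Without the 1 matched Control cell with most Xcl1 that matched value was 1.43 (1.28 to 1.61). The matched SAP cell with most Xcl1, which was kept there, held 45 of 754 UMIs.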

How the data were processed

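In single cells, polyadenylated RNA was captured with 10x Genomics 3' chemistry (version 3, per the labels' protocols). The values the authors deposited are raw counts: UMIs per gene and barcode, in 1 sparse matrix a library, and Cell Ranger 7.1.0 wrote them, per the file headers. A reference called mm10 and the tool Seurat appear in the submitters' processing notes. Annotation version and earlier filters: not given in the sources used here. Control held 19142384 UMIs and SAP 19144320 over 55357 genes. Free RNA and unremoved doublets can add UMIs of other cells to a barcode.

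From these counts cells were selected, matched 1 to 1 on total UMIs within a library without replacement, and summed (Python 3.11.15, numpy 2.4.6, scipy 1.17.1). Ratios of CPM carry exact conditional binomial and shares Clopper-Pearson 95% intervals. Each group is a single library, so no p-value was computed. Genes at 1.5-fold are counted as a description. Scrublet (scanpy 1.11.5) marked 1 barcode per library by its automatic threshold, so the top 257 and 202 scores were left out in an alternative only. The 15 highest and 10 lowest genes in both libraries with intervals on the same side of 1, ranked by the smaller absolute log2 ratio, 4 higher and 4 lower between libraries, the 10 genes most like Ifng and 40 fixed genes were followed, without mitochondrial, ribosomal, numbered and receptor segment genes and repeated symbols. The fixed genes and 20 gene lists, of which 1 symbol was not found among 320, and the cells themselves were chosen with earlier results of these data known. On simulated counts of the Control comparison, 5518 genes, 76.9% of 1.5-fold and 94.6% of 2-fold differences were recovered (interval excluding 1 in the true direction), and 1.94% of unchanged genes passed 1.5-fold. In the simulated counts the interval held the true ratio for 95.7% of unchanged genes. In the real data single cells can hold most UMIs of a gene, so 1.94% is not their rate of false calls. A few genes are not reported here.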

Additional observations from a re-analysis of the deposited data

Results flagged for a closer look

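A few genes lay on opposite sides of 1 in the libraries, with intervals that excluded 1 in each; the difference between the libraries was not tested. Myc had a ratio of Ifng-positive over matched cells of 1.5 in Control, where 1 cell held 14 of its 66 UMIs and the ratio was 1.19 (0.780 to 1.82) without it, and of 0.551 in SAP. Bcl3, an NF-kB regulator, had 0.639 and 1.81, and Tnfsf10, the death ligand TRAIL, 0.718 and 1.36. Btg1 (0.927 and 1.04), H2-K1 (0.940 and 1.06) and Klrd1 (0.935 and 1.07) differed by little.

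Ifng was also present outside the cells described above. Of the kept barcodes with a Cd4 UMI, 60 of 266 in Control (22.6%) and 65 of 247 in SAP (26.3%) had at least 2 Ifng UMIs, at median depths of 3434 and 3542 UMIs. Among barcodes above the Rps19-ps6 limit, 4 in Control and 5 in SAP had at least 1 Ifng UMI.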

How the results depend on the processing

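No paired analysis was possible because each group is 1 library. The share of Ifng-positive cells followed its definition: it was 3.20% in Control and 3.66% in SAP after thinning to 1000 UMIs, 21.8% and 22.3% with Ifng at 1 or more, 3.73% and 4.18% with Ifng at 4 or more, and 11.8% in SAP with at most 5% mitochondrial UMIs. The count of genes 1.5-fold higher was 134 of 2863 compared in Control and 166 of 2868 in SAP after thinning, where fewer genes reach the UMI minimum, and 152 in SAP against all unmatched Ifng-free cells. Between the libraries 146 genes were higher in SAP with median-of-ratios scaling and 368 with no CPM filter.

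Of 110 ratios of followed genes over both libraries, 110 stayed within their counting interval with no CPM filter, 105 with median-of-ratios scaling, 90 against unmatched cells, 82 matched within class, 74 after thinning and 64 with Ifng at 4 or more. These crossed 1. Xcl1 in Control had 1.13 after thinning, 1.60 with Ifng at 4 or more and 1.09 matched within receptor class. Gzma in SAP had 1.0 with median-of-ratios scaling and against unmatched cells, and 1.02 within class. Gzmb in Control had 0.987 against unmatched cells, 0.971 after thinning, 0.865 with Ifng at 4 or more and 0.990 without high doublet scores. With Ifng at 4 or more, Ccl5 in Control had 0.894, Mt2 1.23 and Cd74 3.33; Cd74 had 3.13 without high doublet scores and 3.8 without 1 matched cell. Il12rb2 in SAP had 1.13 after thinning. Within class, Trdc had 1.12 and 1.0 and Cd8b1 in SAP 0.982. The classes are defined by UMIs of Trdc and Cd8b1, so pairing within class moves these ratios towards 1 by construction and they are not read. For the other genes the cause was not tested. Matching within class, 3 matched cells per cell, the need for a Cd3 UMI and leaving out the cell with most UMIs of a gene were added after seeing the data. Genes near 50 UMIs over both groups carry wide intervals, and depth limits what can be said of Il2, Csf2, Irf4 and Eomes.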
